A study of Rattus norvegicus with 9 samples.

Results

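The heat shock proteins and chaperones described here were 70 rat genes, represented by 107 probe sets of the 31042 on the array that are not controls. A probe set was a member if the array's annotation gave it a single gene symbol beginning Hspa, Hspb, Hspd, Hspe, Hsph, Hsp90, Dnaja, Dnajb, Dnajc or Cct2 to Cct8 (each followed by its number), or the symbol Tcp1 or Cryab. Hspa5 was left out by that rule. The rule uses names and no measured values. In all, 20826 probe sets of 14217 genes carry a single symbol. The members comprised 14 probe sets of 8 Hsp70 genes, 4 of 3 Hsp110 genes, 3 of 2 Hsp90 genes, 10 of 8 small heat shock protein genes, 2 of 2 mitochondrial chaperonin genes and 11 of 8 genes of the cytosolic chaperonin CCT. The J proteins made up the rest, with 6 probe sets of 4 Dnaja genes, 19 of 12 Dnajb genes and 38 of 23 Dnajc genes. A further 5 probe sets are listed with several genes that all match and 1 with Hspa8 and another gene. These 6 were kept apart, so that Hsp90aa1, Hspa1b and Hspa8 have no probe set of their own here.

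RNA was taken from rat hippocampus and hybridised to 9 single-colour oligonucleotide arrays. The control group (3 arrays) was exposed to artificial cerebrospinal fluid alone, a salt solution that stands in for the fluid bathing the brain. The other groups (3 arrays each) were exposed to ketone bodies, the small fuel molecules that the liver makes from fat, for 1 h or for 6 h. The labels describe hippocampal neurons, give no strain, age or dose of ketone bodies and no time for the control, and do not say whether the 3 arrays of a group come from separate animals or cultures. The p-values below therefore measure only the spread between these arrays, which may be technical.

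Chaperones bind unfolded proteins and help them to fold, to reassemble or to be degraded. Hsp70 proteins do so in cycles driven by ATP, in which J proteins (the Dnaj genes) deliver clients and start ATP hydrolysis and Hsp110 proteins release the nucleotide. Hsp90 acts later on partly folded clients, small heat shock proteins hold unfolded ones without ATP, and the chaperonins HSP60 (in mitochondria) and CCT (in the cytosol) enclose them in a chamber. Some members, such as Hspa1a, Hspb1, Hsph1 and Dnajb1, are textbook targets of heat shock factor 1, whereas others are made steadily in every neuron.

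Values are log2(signal + 16) after quantile normalisation. Differences are on that scale, which understates the change of dim probe sets, and each value below is for 1 probe set. Of the 107 member probe sets, 85 (of 63 genes) had a mean over all arrays at or above the 40th percentile, a log2 value of 5.21, and were tested. All 22 others lay under that level, and 7 genes (Hspa1l, Hspa12b, Hspb2, Hspb3, Hspb9, Dnajb7 and Dnajc22) had no probe set above it. On the arrays as a whole, 18625 probe sets were tested. Medians per array before normalisation were 5.805, 5.859 and 5.876 in the controls, 5.77, 5.733 and 5.726 at 1 h and 5.671, 5.785 and 5.852 at 6 h. Every 1 h array thus lay below every control before normalisation. Correlations between arrays were 0.949 to 0.987 within groups and 0.945 to 0.988 across groups. The beta-actin 3'/5' ratio on the log2 scale, which compares control probes at either end of the transcript and rises when transcripts are cut short, was 1.37, 1.27 and 1.42 in the controls, 1.39, 2.16 and 2.02 at 1 h and 2.58, 1.92 and 1.03 at 6 h. The GAPDH 3'/5' ratio on that scale was 0.132, 0.021 and 0.243 in the controls and 0.063, 0.136 and 0.123 at 1 h. At 6 h it was 0.459, 0.075 and 0.036. By GAPDH the array 6 h 1 was the highest, but 1 h 2 lay below the third control. The beta-actin ratio was highest on the arrays 6 h 1 and 1 h 2. The difference from control did not pass an exact 2-sided permutation test (p = 0.2 at 1 h and 0.4 at 6 h, adjusted p = 0.6 for both, smallest possible p 0.1). Markers of other cells were abundant although the labels speak of neurons: the summed signal after normalisation of 6 oligodendrocyte genes was 33151 to 34349 in the controls, 31137 to 34005 at 1 h and 30651 to 34636 at 6 h.

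The data showed no chaperone transcript that differed between the groups by the criterion used. By limma's moderated test, with Benjamini-Hochberg adjustment over all 18625 probe sets, 0 of the 85 members passed an adjusted p of 0.05 at 1 h, at 6 h or between 6 h and 1 h. Calls were rare on the whole array: 0.0215% of all probe sets were called higher and 0.0107% lower at 1 h, 0.0215% higher and 0.00537% lower at 6 h, and 0% higher and 0% lower at 6 h against 1 h. The F test for any difference among the groups called 0 members, against 0.0215% of all probe sets. The lowest adjusted p of a member was 0.311 at 1 h (Cryab), 0.523 at 6 h (Dnajb5) and 0.997 between the times.

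At an unadjusted p under 0.05, 5 members were higher and 1 was lower at 1 h, which is 5.88% and 1.18% of the 85, whereas 6.7% and 4.64% of all probe sets were. At 6 h there were 0 higher and 1 lower (1.18%), against 2.8% and 1.46% of all. Between 6 h and 1 h there were 0 higher and 1 lower, against 1.32% and 1.41%. The F test gave 4 members (4.71%), against 6.37% of all probe sets. Under quantile normalisation these shares lie below or near those of the array as a whole. At 1 h on the deposited scale, 12 of 85 members and 2200 of 18625 probe sets had an unadjusted p under 0.05. With array medians set equal, 17 of 85 and 2615 of 18625 did, so the members' share was the higher under both scalings. At 6 h with array medians set equal, 2 of 85 and 915 of 18625 did, a lower share for the members.

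Under quantile normalisation the direction of the members as a list was also close to that of all probe sets. Their median log2 difference was 0.03 at 1 h, with 47 of 85 positive, and the median over all probe sets was 0.03. At 6 h the medians were 0.01 for the members (48 positive) and 0.02 for all, and at 6 h against 1 h they were -0.03 (36 positive) and -0.01. On the deposited scale the medians were 0.04 for the members (48 positive) and -0.01 for all at 1 h. At 6 h on that scale they were 0.03 (49 positive) and -0.01. With array medians set equal they were 0.14 (64 positive) and 0.10 at 1 h, and 0.10 (64 positive) and 0.07 at 6 h. Both exposure groups are compared with the same 3 control arrays, so the comparisons at 1 h and 6 h are not independent of each other.

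The 95% intervals hold under quantile normalisation and measure only the spread between these arrays, which may be technical. The interval of the difference lay within 1.5-fold either way for 68 of 85 members at 1 h and 69 at 6 h. Of all probe sets, 65% and 71.7% did so. The interval lay within 2-fold for 80 and 79 members, against 92.7% and 94.1% of all probe sets. Its upper bound lay under 2-fold for 83 members at 1 h and 84 at 6 h. The median half-width of the interval was 0.29 for members and 0.34 for all probe sets.

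**Figure D1:**
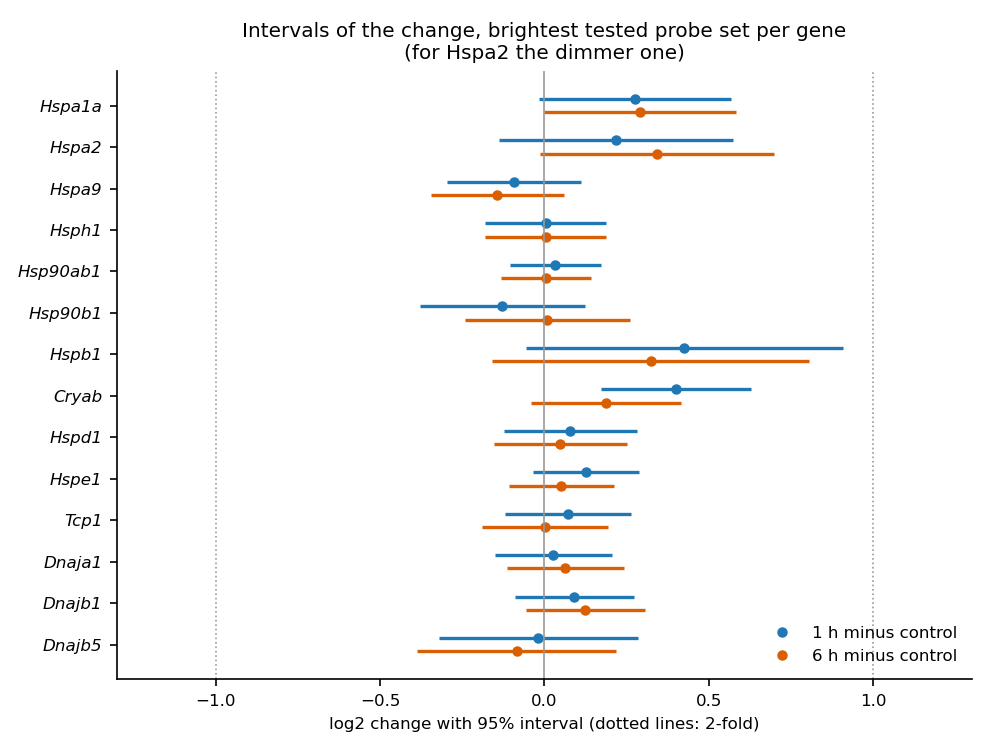
Log2 difference from control with its 95% interval (horizontal axis) at 1 h (blue) and 6 h (orange) for 14 chaperone genes, 3 arrays per group, using the tested probe set of highest mean for each gene except Hspa2. The dotted lines mark a 2-fold change, and no interval in this plot reaches them, while at 1 h that of Cryab (1.13-fold to 1.55-fold) lies wholly above 0.

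For some members the ketone arrays lay wholly to one side of the controls without passing the test. At 1 h, 12 members (14.1%) had all 3 arrays above all 3 controls and 3 (3.53%) had all below, against 13% and 8.25% of all probe sets. At 6 h the counts were 8 (9.41%) above and 3 (3.53%) below, against 6.05% and 3.12%. Between 6 h and 1 h they were 1 above (1.18%) and 3 below (3.53%), against 3.57% and 4.04%.

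Sequences upstream of 3 members are shown because they hold a match to the heat shock element, the motif through which heat shock factors are known to bind. The element is an array of inverted GAA units, and the motif searched was GAANNTTCNNGAA on both strands, overlapping matches included. RefSeq promoters (build GRCr8, 250 bases before to 50 after the start) were matched for 58 of the 70 genes. The motif was present in 5 of these 58 windows (8.62%) and in 267 of 33469 windows of all genes (0.798%). The windows with it were those of Hspd1, Hspe1, Hsph1, Dnaja1 and Cct4. The shorter motifs of 2 units, GAANNTTC or TTCNNGAA, which also lie within the longer one, were present in 17 (29.3%) and 15.9%. Capitals mark the matched units with the bases between them. Hspd1 and Hspe1 are transcribed away from each other from starts 290 bases apart, and the 18-base element of one is the reverse complement of that of the other, so that it is a single element. The windows are Hspd1 on chr9:64084228-64084287 (minus strand, 250 to 191 bases before the start), Hspe1 on chr9:64084077-64084326 (plus strand) and Hsph1 on chr12:10427118-10427367 (plus strand), the latter pair covering the 250 bases before the start.
Hspd1: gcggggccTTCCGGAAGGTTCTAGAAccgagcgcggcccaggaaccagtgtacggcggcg
Hspe1: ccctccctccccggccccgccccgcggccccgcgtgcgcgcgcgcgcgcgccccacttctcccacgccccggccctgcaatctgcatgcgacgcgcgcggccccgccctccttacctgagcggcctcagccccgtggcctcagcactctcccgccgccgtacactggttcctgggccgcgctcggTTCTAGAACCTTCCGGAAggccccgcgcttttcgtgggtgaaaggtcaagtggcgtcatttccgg
Hsph1: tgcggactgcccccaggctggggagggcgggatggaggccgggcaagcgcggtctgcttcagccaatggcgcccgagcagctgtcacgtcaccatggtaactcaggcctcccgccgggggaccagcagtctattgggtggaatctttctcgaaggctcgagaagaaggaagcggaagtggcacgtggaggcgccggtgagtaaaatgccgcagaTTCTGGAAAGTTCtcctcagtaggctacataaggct

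The 5 genes with the motif had 7 tested probe sets. Their median log2 difference was 0.07 at 1 h and 0.05 at 6 h, 6 of 7 were positive in each, and 0 had an unadjusted p under 0.05 in either. On the deposited scale the medians were 0.15 and 0.10, and with array medians set equal 0.26 and 0.17. The 67 tested probe sets of the 48 other genes with a matched window had medians of 0.01 and 0.01, with 34 and 37 positive. Those other genes include Hspa1a, Hspb1 and Dnajb1, named above as textbook targets of heat shock factor 1. Among the genes with the motif, Hspd1 and Hspe1 share a single element. The matches of Dnaja1 and Cct4 begin 9 and 25 bases after the start. A match is a description of the letters in the window and not a binding site.

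Among Hsp70 genes, Hspa1a, the classical stress-inducible Hsp70, was slightly higher on every ketone array after quantile normalisation. Its values were 6.16, 6.28 and 6.07 in the controls, 6.63, 6.39 and 6.31 at 1 h and 6.55, 6.44 and 6.39 at 6 h. No ketone array overlapped the controls on this scale, whereas on the deposited scale the third 1 h array, at a signal of 59.4, lay below the second control at 64.7. The log2 difference was 0.27 (SE 0.13) at 1 h, or 1.21-fold with a 95% interval of 0.988 to 1.48, and 0.29 (SE 0.13) at 6 h, or 1.22-fold with an interval of 0.998 to 1.5. Neither passed limma's test (unadjusted p = 0.063 and 0.052, adjusted p = 0.459 and 0.987). The probe set listed with Hspa1b and Hspa1a, near-identical genes whose transcripts cannot be told apart on it, read 6.78, 6.78 and 6.66 in the controls, 6.73, 7.34 and 6.91 at 1 h and 7.06, 6.95 and 6.84 at 6 h. At 1 h it overlapped the controls through the first array, at 6 h it lay above them, and its differences of 0.25 and 0.21 (SE 0.16) had adjusted p of 0.548 and 0.987.

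The Hsp70 of mitochondria, Hspa9, had 2 tested probe sets. The one of higher mean read 9.41, 9.34 and 9.27 in the controls, 9.34, 9.11 and 9.29 at 1 h and 9.13, 9.21 and 9.24 at 6 h, with differences of -0.09 and -0.14 (SE 0.09, adjusted p = 0.690 and 0.987). The 6 h arrays lay below the controls and the 1 h arrays overlapped them. With array medians set equal in place of quantile normalisation, the 1 h difference was 0.03. Hspa2, known mainly from the testis, read 5.65, 5.35 and 5.61 in the controls, 5.81, 5.63 and 5.81 at 1 h and 6.15, 5.76 and 5.72 at 6 h on its dimmer probe set, the 6 h arrays all above the controls (difference 0.34, SE 0.16, adjusted p = 0.987). The brighter one differed by 0.16 (SE 0.22) and overlapped them. The other tested Hsp70 genes, Hspa12a, Hspa13 and Hspa14, overlapped the controls at both times, with differences between -0.12 and 0.16. The probe set listed with the constitutive Hspa8 and another gene differed by 0.03 at 1 h and 0.01 at 6 h (SE 0.04).

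No probe set of an Hsp110 or Hsp90 gene passed the test at either time. Hsph1, the stress-inducible Hsp110, read 10.80, 10.89 and 10.69 in the controls, 10.84, 10.73 and 10.83 at 1 h and 10.89, 10.67 and 10.84 at 6 h on its brighter probe set, with differences of 0.00 (SE 0.08) at both times and intervals from 0.882 to 1.14-fold. Its dimmer probe set read 9.04, 9.08 and 8.89 in the controls, 8.89, 8.30 and 8.86 at 1 h and 8.99, 8.32 and 8.99 at 6 h. The second array of each ketone group was the lowest of all, the 1 h arrays lay just below the controls and the 6 h arrays overlapped them. The differences were -0.32 and -0.24 (SE 0.20, adjusted p = 0.548 and 0.987), and without the second array of the ketone group they were -0.13 and -0.02. Hspa4 and Hspa4l, the other Hsp110 genes, differed by -0.12 to -0.02 with overlapping arrays.

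Hsp90ab1, the constitutive cytosolic Hsp90, read 12.05, 12.07 and 11.93 in the controls, 11.98, 12.05 and 12.12 at 1 h and 12.08, 12.03 and 11.95 at 6 h on its brighter probe set. The differences were 0.03 and 0.00 (SE 0.06), and the 95% interval at 6 h ran from 0.912 to 1.10-fold. Its dimmer probe set read 11.05, 11.39 and 11.10 in the controls, 11.12, 11.07 and 10.60 at 1 h and 9.69, 11.26 and 11.49 at 6 h. On that probe set the array 6 h 1 alone stood far below all others, and the 6 h difference of -0.37 (SE 0.38) became 0.19 without it. The 2 probe sets listed with Hsp90aa1 and its pseudogene differed by -0.05 and -0.37 at 1 h and by 0.00 and -0.39 at 6 h (SE 0.06 and 0.37). The one of larger SE had deposited signals of 2826.5, 3620.3 and 3518.4 in the controls. They were 2858.3, 3888.6 and 1831.1 at 1 h and 1388.4, 3572.3 and 3771.6 at 6 h. Only the arrays 1 h 3 and 6 h 1 lay below the controls there. Hsp90b1, the Hsp90 of the endoplasmic reticulum, differed by -0.13 at 1 h and 0.01 at 6 h (SE 0.11, adjusted p = 0.656 and 0.997); the 1 h value was 0.05 with array medians set equal.

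Small heat shock proteins had the highest median of the classes under the scaling used, 0.29 at 1 h with 5 of 6 tested probe sets positive and 0.16 at 6 h with 5 of 6, and both medians stayed positive under the other scalings tried (0.21 and 0.31 at 1 h, 0.13 and 0.21 at 6 h). Under those scalings the mitochondrial chaperonin pair had a slightly higher median at 1 h (0.21 and 0.32). A class was not tested as such. Cryab, which encodes the small heat shock protein alpha B-crystallin and is known from oligodendrocytes and astrocytes, read 8.82, 8.91 and 8.79 in the controls, 9.19, 9.28 and 9.25 at 1 h and 9.0, 9.21 and 8.87 at 6 h. All 1 h arrays were above all controls, while 1 array at 6 h lay within the control range. The 1 h difference was 0.40 (SE 0.10), or 1.32-fold with an interval of 1.13 to 1.55. It had the smallest p of any member at 1 h (limma, unadjusted p = 0.0029, adjusted p = 0.311), and the 6 h difference was 0.19 (SE 0.10, adjusted p = 0.987). Over the alternatives tried the 1 h difference ran from 0.37 to 0.52 and its adjusted p from 0.123 to 0.773. Of the 12 tested oligodendrocyte marker probe sets, 9 were negative at 1 h, with a median of -0.11, and of the 13 astrocyte ones 8 were negative, with a median of -0.08.

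Hspb1, which encodes HSP27, read 6.37, 6.52 and 6.56 in the controls, 6.44, 7.2 and 7.08 at 1 h and 6.81, 7.12 and 6.48 at 6 h. A pair of arrays in each ketone group was high and the remaining one lay within the control range. The differences were 0.42 and 0.32 (SE 0.22, adjusted p = 0.481 and 0.987), and the 1 h value ran from 0.28 without the array 1 h 2 to 0.66 without 1 h 1. Hspb7, best known from heart muscle, differed by 0.35 and 0.21 (SE 0.16, adjusted p = 0.443 and 0.987). Hspb6 lay above the controls at 1 h by 0.13 (SE 0.10, adjusted p = 0.602). Hspb8, which works with the cochaperone Bag3, differed by 0.23 and 0.14 on one probe set and by 0.00 and -0.23 on the other, all with overlapping arrays.

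**Figure D2:**
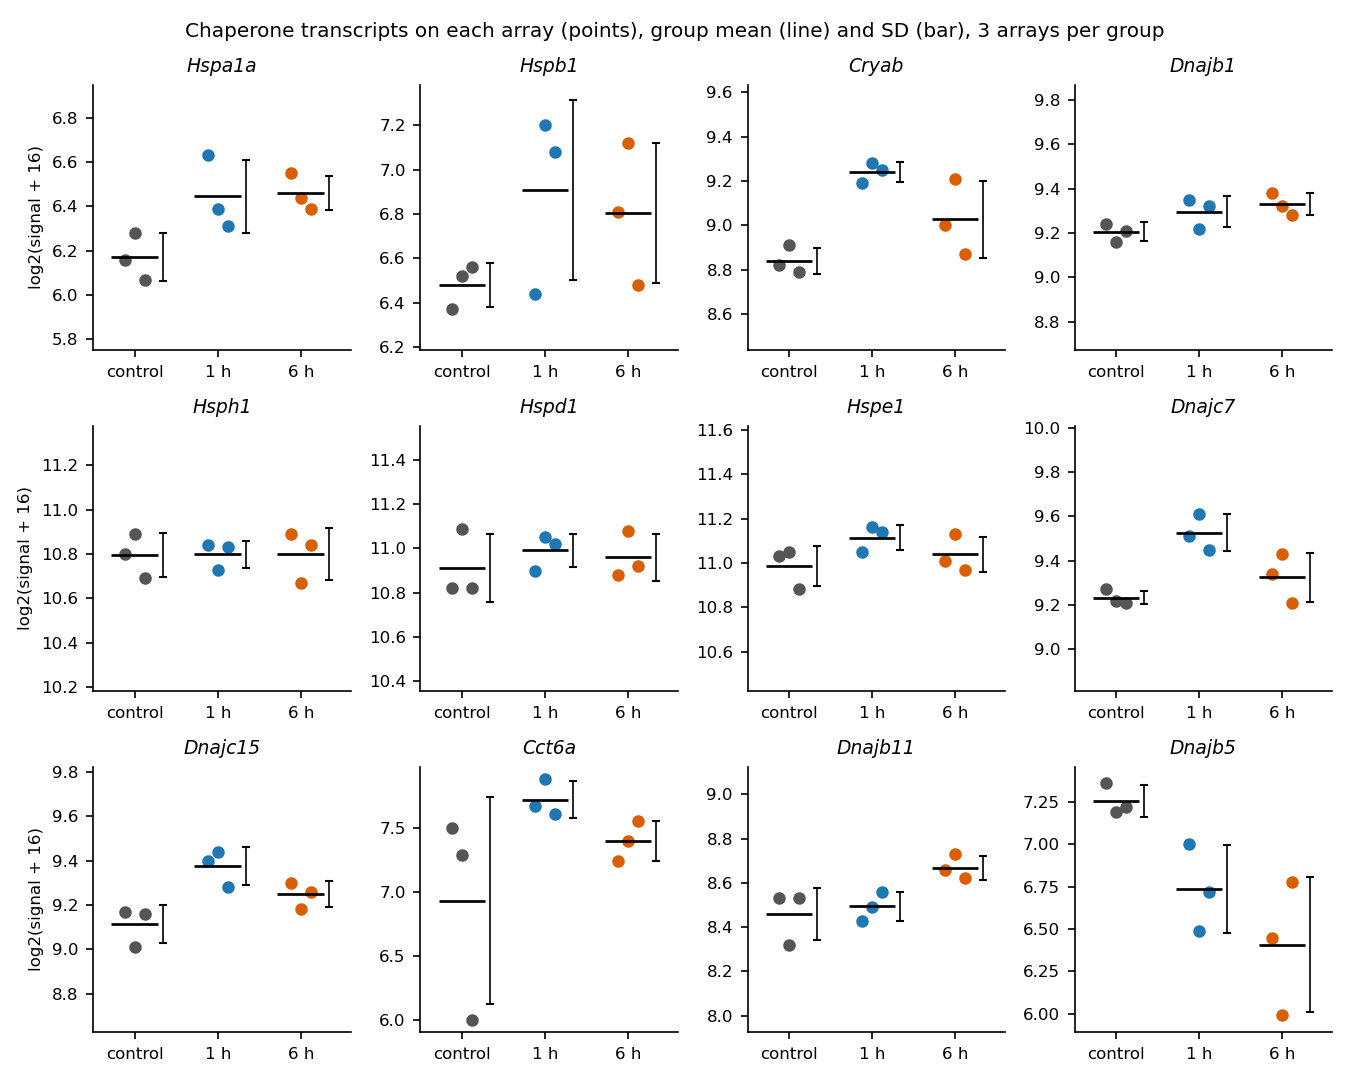
Log2(signal + 16) after quantile normalisation (vertical axis, its range differing between panels) on each of the 9 arrays for 12 chaperone probe sets; points are arrays, lines group means and bars SDs (n = 3). The dimmer probe set is shown for Cct6a, that of intermediate mean for Dnajb5 and the brighter one for Dnajb1 and Hsph1. Cryab, Dnajc7, Dnajc15 and Cct6a at 1 h lie above the controls and Dnajb5 lies below them, while Hsph1 and Hspd1 overlap throughout.

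The mitochondrial chaperonin genes did not pass the test at either time. Hspd1 (HSP60) read 10.82, 11.09 and 10.82 in the controls, 10.90, 11.05 and 11.02 at 1 h and 10.88, 11.08 and 10.92 at 6 h. Its co-chaperonin Hspe1 (HSP10) read 11.03, 11.05 and 10.88 in the controls, 11.05, 11.16 and 11.14 at 1 h and 11.01, 11.13 and 10.97 at 6 h. The 1 h arrays of Hspe1 reached from just above the highest control upward, and all other groups overlapped. Differences were 0.08 and 0.05 for Hspd1 (SE 0.09) and 0.13 and 0.05 for Hspe1 (SE 0.07), with adjusted p of 0.512 or more. The intervals ended at 1.22-fold at most for both genes under quantile normalisation. The estimates depended on the scaling: at 1 h they were 0.17 for Hspd1 and 0.25 for Hspe1 on the deposited scale and 0.28 and 0.35 with array medians set equal, and at 6 h 0.10 and 0.11, then 0.17 and 0.19.

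The subunits of CCT, which folds actin and tubulin, were mostly a little higher at 1 h. All 8 genes had tested probe sets, and 9 of these 11 were positive at 1 h, with a median of 0.15 (0.20 on the deposited scale and 0.30 with array medians set equal). At 6 h the median was 0.01 with 7 positive (0.04 with 10 positive on the deposited scale and 0.12 with 11 positive with array medians set equal). Of all probe sets, 55.3% were positive at 1 h. The third control array alone was the lowest control, at 2 decimals, in 8 of the 11 CCT probe sets, and the subunits were not tested as a class. Cct2 read 10.12, 10.13 and 10.02 in the controls, 10.20, 10.33 and 10.20 at 1 h and 9.98, 10.03 and 10.23 at 6 h, so that only the 1 h arrays stood clear of the controls (difference 0.15, SE 0.09, adjusted p = 0.511). Both probe sets of Cct5 did so too, with differences of 0.17 and 0.12 (SE 0.09, adjusted p = 0.468 and 0.599). Cct3, Cct4 and Cct7 differed by 0.20, 0.26 and 0.17 with overlapping arrays, and Tcp1 by 0.07 (SE 0.09).

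Cct6a had the widest difference of the members at 1 h, but on only one of its probe sets. The dimmer one read 7.50, 7.29 and 6.00 in the controls, 7.67, 7.88 and 7.61 at 1 h and 7.24, 7.40 and 7.55 at 6 h. The third control stood more than 1 log2 unit below the other controls. The 1 h difference was 0.79 (SE 0.32, unadjusted p = 0.032, adjusted p = 0.409) and was 0.33 without that control. The brighter one differed by 0.00 (SE 0.08), its 1 h arrays of 10.27, 10.34 and 10.14 overlapping controls of 10.28, 10.18 and 10.29.

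**Figure D3:**
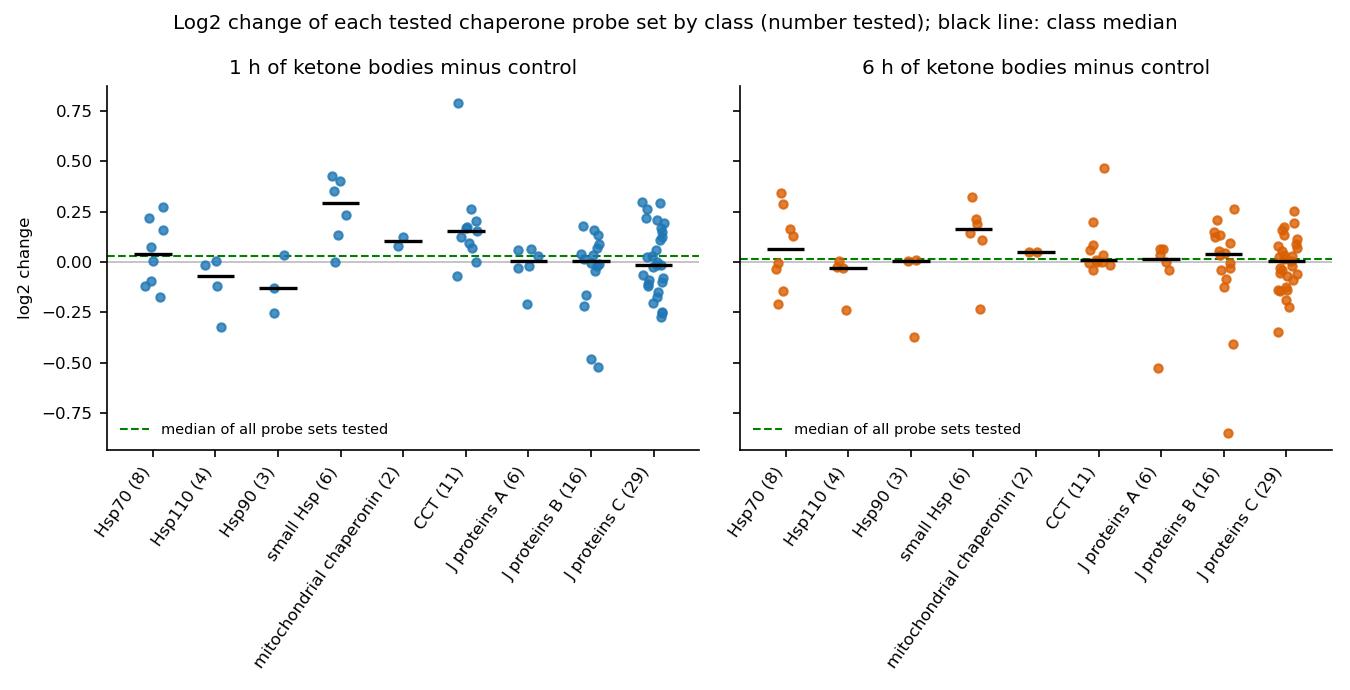
Log2 difference from control (vertical axis) of each of the 85 tested chaperone probe sets by class, at 1 h (left) and 6 h (right); each point is a probe set, black lines are class medians and the green dashed line is the median of all 18625 probe sets tested. Small heat shock proteins (median 0.29) and CCT (0.15) have the highest medians at 1 h among classes with more than 2 probe sets, and the J proteins are centred near 0.

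Among J proteins, the Dnaja genes, general partners of Hsp70, had medians of 0.00 at 1 h and 0.02 at 6 h over 6 probe sets (0.07 and 0.05 on the deposited scale, 0.18 and 0.12 with array medians set equal). Dnaja1, a heat-inducible one, differed by 0.07 and 0.04 on one probe set and by 0.03 and 0.06 on the other (SE 0.08). Dnaja4 differed by 0.06 at both times on its brighter probe set, and by -0.21 and -0.52 (SE 0.32) on the dimmer one, where the arrays 1 h 2, 6 h 1 and 6 h 2 read 6.49, 6.46 and 6.54 and the other 6 read 7.2 to 7.67. That 1 h difference was 0.12 without the array 1 h 2.

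The Dnajb genes had medians of 0.00 and 0.04 over 16 probe sets. Dnajb1 (HSP40), the heat-inducible partner of Hspa1a, read 9.24, 9.16 and 9.21 in the controls, 9.35, 9.22 and 9.32 at 1 h and 9.38, 9.32 and 9.28 at 6 h on its brighter probe set. The 6 h arrays were all above the controls and the 1 h arrays overlapped them. The differences were 0.09 and 0.12 (SE 0.08, adjusted p = 0.663 and 0.987), with an upper bound of 1.23-fold at 6 h. Its other probe set differed by 0.16 and -0.04 (SE 0.18). Dnajb11, a partner of BiP in the endoplasmic reticulum, read 8.53, 8.32 and 8.53 in the controls, 8.43, 8.49 and 8.56 at 1 h and 8.66, 8.73 and 8.62 at 6 h. Its 6 h arrays stood above both other groups, by 0.21 (SE 0.10, adjusted p = 0.987) over control and 0.17 (SE 0.10, adjusted p = 0.997) over 1 h.

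Dnajb5, a class B J protein, had the most negative difference of any member at both times, on 1 of its 3 probe sets. The probe set of intermediate mean read 7.36, 7.19 and 7.22 in the controls, 7.0, 6.49 and 6.72 at 1 h and 6.45, 5.99 and 6.78 at 6 h. Every ketone array lay below every control. The log2 difference was -0.52 at 1 h (SE 0.20, unadjusted p = 0.029, adjusted p = 0.399) and -0.85 at 6 h (SE 0.20, unadjusted p = 0.0019, adjusted p = 0.523), or 0.698-fold and 0.555-fold. With the mean of the beta-actin and GAPDH log2 3'/5' ratios as a covariate the differences were -0.42 and -0.73. Without the arrays 1 h 2 and 6 h 1 they were -0.39 and -0.87. Over all alternatives the adjusted p at 6 h ran from 0.193 to 1. The brightest probe set differed by -0.02 and -0.08 (SE 0.14) and the dimmest by -0.22 and -0.41 (SE 0.39), both with overlapping arrays. Dnajb14, a J protein of the reticulum's membrane, read 6.52, 7.01 and 7.11 in the controls, 6.34, 6.88 and 5.98 at 1 h and 6.11, 7.33 and 7.32 at 6 h on its brighter probe set. Its arrays overlapped throughout, with differences of -0.48 and 0.04 from control and 0.52 from 1 h to 6 h (SE 0.34, adjusted p = 0.589, 0.993 and 0.997).

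The Dnajc genes, the most varied J proteins, had medians of -0.01 and 0.00 over 29 probe sets. The medians of the Dnajb and Dnajc genes at both times took either sign across the scalings tried. At 1 h, 3 of the 5 members higher at an unadjusted p under 0.05 by limma were Dnajc genes. Dnajc is the largest class, with 29 of the 85 tested probe sets, and 6.7% of all probe sets were higher at that threshold. Dnajc7, which binds both Hsp70 and Hsp90, read 9.27, 9.22 and 9.21 in the controls, 9.51, 9.61 and 9.45 at 1 h and 9.34, 9.43 and 9.21 at 6 h. The 1 h arrays stood above both other groups. The difference was 0.29 at 1 h (SE 0.09, unadjusted p = 0.0080, adjusted p = 0.350), 0.09 at 6 h (adjusted p = 0.987) and -0.20 from 1 h to 6 h (unadjusted p = 0.047, adjusted p = 0.997).

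Dnajc15 and Dnajc19 encode J proteins of the inner mitochondrial membrane tied to the protein import motor. Dnajc15 read 9.17, 9.01 and 9.16 in the controls, 9.40, 9.44 and 9.28 at 1 h and 9.30, 9.18 and 9.26 at 6 h, above every control on all ketone arrays. The difference was 0.26 at 1 h (SE 0.09, unadjusted p = 0.014, adjusted p = 0.378) and 0.14 at 6 h (adjusted p = 0.987). Dnajc19 read 9.65, 9.66 and 9.65 in the controls, 9.82, 9.85 and 9.87 at 1 h and 9.64, 9.86 and 9.69 at 6 h. Its 1 h arrays stood clear of the controls by 0.19 (SE 0.08, unadjusted p = 0.037, adjusted p = 0.417), while the 6 h arrays overlapped them.

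Dnajc1, of the membrane of the endoplasmic reticulum, read 6.83, 6.75 and 6.96 in the controls, 6.67, 6.58 and 6.56 at 1 h and 6.69, 6.74 and 6.55 at 6 h on its brighter probe set, below all controls on every ketone array (differences -0.25 and -0.19, SE 0.12, adjusted p = 0.456 and 0.987). On the dimmer one it differed by 0.12 and -0.14, with the 6 h arrays below those of 1 h by 0.27. Dnajc10, a reticulum protein that reduces disulfides, differed by -0.25 and -0.20 at 1 h on its probe sets, with overlapping arrays. Dnajc6 (auxilin), which with Hsp70 strips clathrin from vesicles in neurons, differed by -0.17 and -0.12 at 1 h (SE 0.09 and 0.10, adjusted p = 0.477 and 0.636), values that were 0.05 and 0.03 with array medians set equal. A probe set of Dnajc14 differed by -0.27 and -0.35 (SE 0.20, adjusted p = 0.602 and 0.987), and its 1 h value was -0.06 without the array 1 h 2. Dnajc18 differed by 0.26 at 6 h (SE 0.13, adjusted p = 0.987), and its 6 h arrays of 6.42, 6.66 and 6.32 stood above controls of 6.23, 6.19 and 6.22.

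For some genes the gap between probe sets moved with the beta-actin 3'/5' ratio across the arrays. For each of the 20 genes with several tested probe sets, the difference between that of highest and that of lowest mean was set against the log2 ratio over the 9 arrays. The correlation was positive for 13 genes, with a median Pearson r of 0.43, and negative for 7, the lowest being that of Dnajb14 (r = -0.76, exact p = 0.0206, adjusted p = 0.0687). It passed an exact permutation test with Benjamini-Hochberg adjustment over the 20 genes for 4. These were Dnajc5, the cysteine string protein of synaptic vesicles (r = 0.90, exact p = 0.00033, adjusted p = 0.0066, Spearman rho 0.92 with adjusted p = 0.026), Dnaja4 (r = 0.88, adjusted p = 0.020), Hsp90ab1 (r = 0.82, adjusted p = 0.024) and Hspa9 (r = 0.81, adjusted p = 0.035) by exact permutation. By Spearman's rho only Dnajc5 passed after adjustment, and rho was 0.75 (exact p = 0.0255, adjusted p = 0.155) for Dnaja4, 0.73 (exact p = 0.0311, adjusted p = 0.155) for Hsp90ab1 and 0.68 (exact p = 0.0503, adjusted p = 0.19) for Hspa9. Without the 2 arrays farthest from the median ratio, 6 h 1 and 1 h 2, the r values of the 4 genes were 0.74, 0.71, 0.74 and 0.51, and the median over the 20 genes was 0.24. The gap of Hsp90ab1 was 0.68 to 1.00 in the controls, 0.86, 0.98 and 1.52 at 1 h and 2.39, 0.77 and 0.46 at 6 h. The probe set of lower mean had the wider range over the arrays for 14 of the 20 genes. The permutations shuffled the 9 arrays without regard to group, so their p-values do not separate a difference between groups from variation between arrays. This comparison of probe sets was chosen after the values were seen, and the part of RNA integrity in the differences of single probe sets was not tested further.

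**Figure D4:**
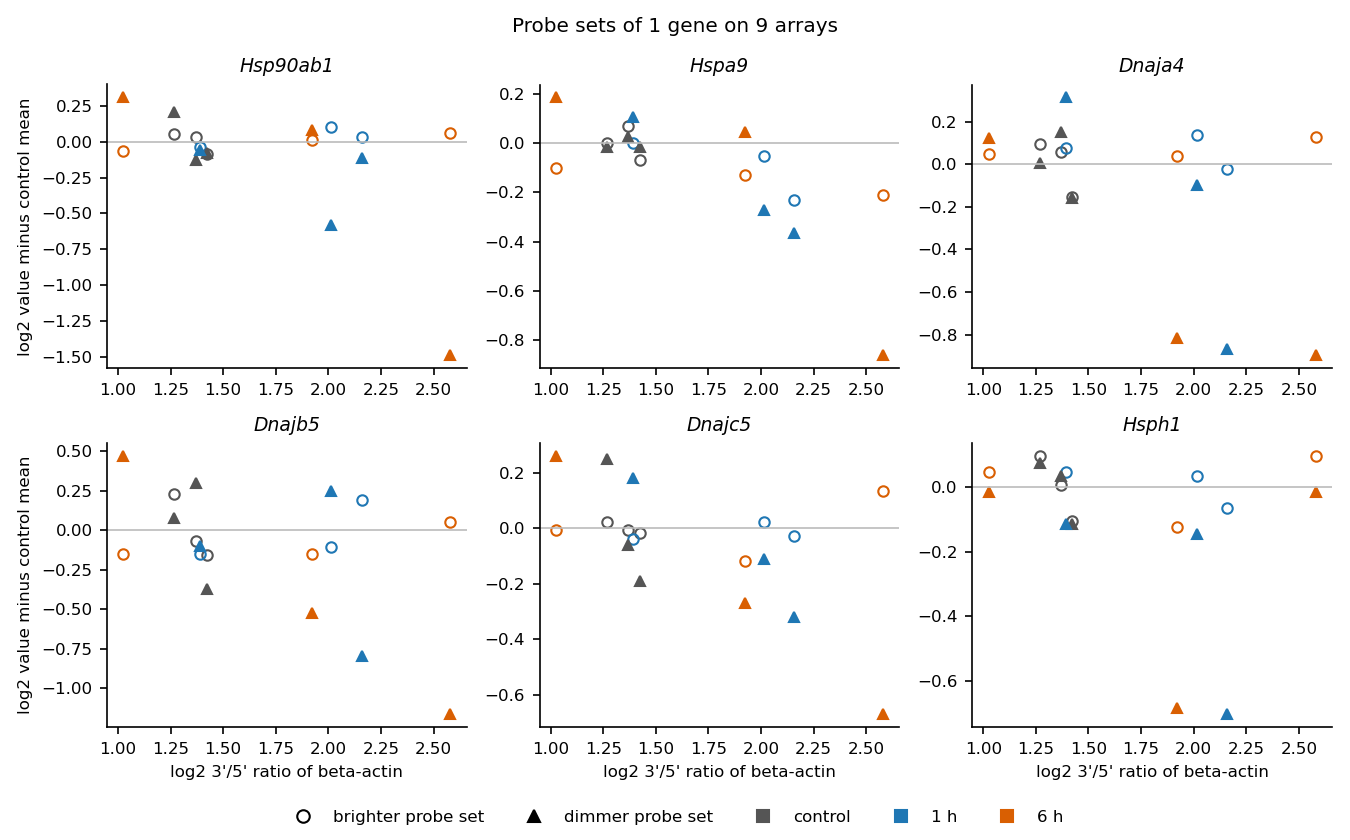
Value of a gene's brighter (open circles) and dimmer (triangles) probe set minus its control mean (vertical axis, log2) against the log2 3'/5' ratio of beta-actin (horizontal axis) on the 9 arrays, for 6 genes, coloured by group. The dimmer probe sets of Hsp90ab1 and Hspa9 are lowest on the array 6 h 1, whose ratio of 2.58 is the highest, while the brighter ones lie nearer to 0.

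The other genes of the chaperone system, taken from lists of cochaperones and cofactors, also held 0 calls at an adjusted p of 0.05. Heat shock factors and their binding protein had a median of -0.14 at 1 h and 0.03 at 6 h over 5 tested probe sets, 0 of them at an unadjusted p under 0.05. Hsf1, the master factor, read 7.06, 6.73 and 6.34 in the controls, 6.90, 6.96 and 7.07 at 1 h and 7.21, 6.98 and 6.65 at 6 h, all overlapping (differences 0.27 and 0.24, SE 0.20). Its inhibitor Hsbp1 differed by 0.18 and 0.09 (SE 0.09, adjusted p = 0.488 and 0.987). From 1 h to 6 h the smallest p were those of Hsf2 (0.20, SE 0.19) and Hsbp1 (-0.09), both with an adjusted p of 0.997.

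Cochaperones of Hsp70 and Hsp90 had medians of 0.08 and 0.01 over 28 probe sets, with 2 higher and 1 lower at an unadjusted p under 0.05 at 1 h (6.7% and 4.64% of all probe sets) and 2 higher and 0 lower at 6 h (2.8% and 1.46% of all). The differences ran from -0.84 to 0.41 at 1 h, with 17 positive and 11 negative. At 6 h they ran from -0.70 to 0.56, with 15 positive and 13 negative. Grpel1, the nucleotide exchange factor of mitochondrial Hsp70, read 8.88, 8.82 and 8.53 in the controls, 9.14, 9.14 and 9.16 at 1 h and 9.02, 9.22 and 8.90 at 6 h, above every control on all ketone arrays. Its differences were 0.40 and 0.30 (SE 0.12, adjusted p = 0.335 and 0.987). Bag2 differed by 0.34 at 1 h (SE 0.13, adjusted p = 0.396) and Bag3, itself a heat shock target, by 0.56 at 6 h (SE 0.22, adjusted p = 0.987). From 1 h to 6 h, 1 was higher and 0 lower at an unadjusted p under 0.05, against 1.32% and 1.41% of all probe sets. This was the Hsp70-interacting protein gene St13 (0.22, SE 0.10), and Ppp5c followed (-0.27, SE 0.16), each with an adjusted p of 0.997.

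Prefoldin, which hands clients to CCT, and the other CCT cofactors had medians of 0.12 and 0.06 over 12 probe sets, with 4 higher and 0 lower at an unadjusted p under 0.05 at 1 h and 0 in either direction at 6 h, where the shares of all probe sets were 6.7% and 4.64% at 1 h and 2.8% and 1.46% at 6 h. Pfdn5 read 9.83, 9.85 and 9.71 in the controls, 10.07, 10.27 and 10.01 at 1 h and 9.83, 10.04 and 9.81 at 6 h. Pfdn6 read 9.77, 9.66 and 9.51, then 10.01, 10.24 and 9.90, then 9.63, 9.96 and 9.54. For both, the 1 h arrays stood above the controls, by 0.32 (SE 0.10) and 0.40 (SE 0.13), with adjusted p of 0.350 and 0.368, and the 6 h arrays overlapped them. They were also the 2 genes lower from 1 h to 6 h at an unadjusted p under 0.05 (-0.22 and -0.34, adjusted p = 0.997), where 1.41% of all probe sets were lower. At 6 h the smallest p in the list were those of the 2 probe sets of Pdcl3, with differences of 0.20 and 0.35 and adjusted p of 0.987. Chaperones of the endoplasmic reticulum outside the members had medians of -0.01 and -0.05 over 14 probe sets, 1 higher and 1 lower at an unadjusted p under 0.05 at 1 h (Creld2, 0.37, SE 0.12, and calnexin, Canx, -0.30, SE 0.10, adjusted p = 0.360 and 0.362) and 0 at 6 h, where Canx had the smallest p (-0.74 and -0.16 on its probe sets, adjusted p = 0.987). From 1 h to 6 h, 1 was lower, Creld2 (-0.31, SE 0.12), and Canx followed (0.14, SE 0.10), each with an adjusted p of 0.997. The shares of all probe sets for these counts are those given above for prefoldin.

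Markers of cell types moved beside these values. All 10 tested probe sets of excitatory neuron markers were negative at 1 h and at 6 h, with medians of -0.51 and -0.35, and their summed signal was 6829 to 7678 in the controls, 5261 to 6174 at 1 h and 5040 to 6200 at 6 h. Of the 7 tested microglial probe sets, 5 were positive at both times, with medians of 0.27 and 0.04 and a summed signal of 908 to 1075, 1173 to 1253 and 1063 to 1150. General neuron markers summed to 26193 to 26937 in the controls, 24277 to 24964 at 1 h and 23819 to 25898 at 6 h, below the controls on every ketone array. Endothelial markers summed to 628 to 686, 697 to 745 and 698 to 799, above them on every ketone array. Choroid plexus and ependyma markers summed to 4626 to 4761, 3843 to 4220 and 4490 to 4804, below the controls at 1 h, and astrocyte markers to 18949 to 19775, 18052 to 19001 and 18025 to 20068, overlapping them. The 7 interneuron probe sets had medians of 0.17 and 0.06, with 5329 to 5779, 5943 to 6287 and 5837 to 5952. Each of the markers taken as defining (Slc17a7, Snap25, Gad1, Gfap, Aqp4, Mbp, Mog, Aif1, Csf1r, Cldn5, Pecam1 and Ttr) had a probe set above the filter. In RNA from mixed cells, fewer cells of a type and less RNA per cell cannot be told apart, and the part of cell makeup in the chaperone values was not tested.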

How the data were processed

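The authors deposited 1 table of linear signal intensity, 31099 probe sets by 9 arrays. The software is not given in the sources used here; the deposited intensity has a mean of 150.05 on every array once the lowest and highest 2% are left out, which global scaling would give. Members and gene lists were chosen with earlier results of these data known. Values were taken as log2(signal + 16) and quantile normalised, 57 control probe sets were left out, and probe sets whose mean lay under the 40th percentile were not tested. Groups and replicate numbers came from the labels. One limma 3.58.1 fit (R 4.3.3) with a coefficient per group, an intensity trend and 6 residual degrees of freedom gave all 2-sided tests, adjusted by Benjamini-Hochberg over 18625 probe sets at 0.05, and the 95% intervals. The steps were tested on simulated data. Precision is limited by the number of arrays, 3 per group.

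Gene symbols came from the platform annotation, and all 70 member genes matched a RefSeq gene table by Entrez number, with 0 symbols changed. Named are, per comparison and direction, the 5 members of smallest p, per class the 2 of smallest F-test p, and a set list of heat shock genes; of other lists, the 2 of smallest p per comparison. Genes beyond that rule were named after their values were seen. Alternatives were the deposited scale, array medians set equal, pseudocounts of 1 and 64, filters at the 60th percentile and none, no trend, array weights, a replicate block, the 3'/5' ratio as a covariate, only the compared groups and leaving out each array. The 3'/5' covariate was the mean of the beta-actin and GAPDH log2 ratios of each array. Leaving out the 2 arrays of highest beta-actin 3'/5' ratio and the comparison of probe sets of a gene were added after seeing the data. Figures were drawn with matplotlib 3.10.9.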

Additional observations from a re-analysis of the deposited data

How the results depend on the processing

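Among the 85 members, 0 were called in any comparison under the 20 alternatives fixed at the start. With the 2 arrays of highest beta-actin 3'/5' ratio left out, a setting chosen after seeing the data, 1 was called at 6 h against 1 h. This was Dnajb14 on its brighter probe set (1.17, SE 0.21, limma adjusted p = 0.0414, where 261 probe sets in all were called). It is named because of that value.

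Counts at an unadjusted p under 0.05 moved more. At 1 h the 6 of 85 became 12 on the deposited scale and 17 with array medians set equal (16 higher and 1 lower). With no filter they became 10 of 107. Over all probe sets, 2112 of 18625 became 2200 and 2615 in the same order, and 2960 of 31042 with no filter. At 6 h the 1 became 2 with medians set equal, a pseudocount of 1 or array weights. It became 3 with no filter, no trend, the replicate block or without those 2 arrays. With one array left out it was 1 to 7 (7 without 6 h 3). Over all probe sets the 794 became 915, 797 and 1126, then 1422, 861, 819 and 1116, in the same order. With one array left out they were 522 to 1613 (1613 without 6 h 3). At 6 h against 1 h the 1 became 2 on the deposited scale and 0 with medians set equal or no trend. It became 3 with no filter or without those 2 arrays, 5 with array weights and 0 to 4 with one array left out. Over all probe sets the 509 became 528, then 399 and 545, then 1212 and 2440, then 1294, in the same order. With one array left out they were 379 to 1566. With medians set equal the median difference of the members became 0.1429 at 1 h, 0.1034 at 6 h and -0.0635 between the times, while that of all probe sets became 0.096 and 0.0707 against control. It was 0.0681 at 1 h with the 3'/5' covariate, and at 6 h 0.0418 without those 2 arrays and 0.0020 to 0.0418 with one array left out (0.0418 without 6 h 1). Same-numbered arrays correlated at -0.36 to 0.539 in their deviations from group means, and the other pairs across groups at -0.435 to 0.529. Deviations within a group sum to 0, so these values cannot show whether the numbers pair the arrays. The replicate block called 0 members.

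None of the 88 named differences passed the test in the reported fit, and 55 of them kept their sign under every alternative. Of their 1835 alternative values, 94 had the opposite sign, and the cause was not tested. Those values are given here, with a gene's probe set named by its brightness. For 1 h against control with the 3'/5' covariate they were 0.0775 for Hspa9 (dimmer), 0.1353 for Hsp90ab1 (dimmer), 0.1462 for Dnajb5 (dimmest) and 0.083 for Dnaja4 (dimmer). For 1 h against control with array medians set equal they were 0.0794 for Dnajb5 (brightest), 0.0499 for Dnajc6 (brighter), 0.0285 for Dnajc6 (dimmer), 0.0487 for Hsp90b1 and 0.0346 for Hspa9 (brighter). For 1 h against control with array weights they were -0.0116 for Hsp90ab1 (brighter). For 1 h against control without the 2 arrays of highest ratio they were 0.0719 for Dnajb5 (dimmest) and 0.1156 for Dnaja4 (dimmer). For 6 h against 1 h without the 2 arrays of highest ratio they were -0.063 for Hsp90b1. For 6 h against control with the 3'/5' covariate they were -0.0186 for Tcp1, 0.08 for Hspa9 (dimmer), 0.0357 for Cct2, 0.0754 for Hsp90ab1 (dimmer), -0.0302 for Hsp90ab1 (brighter), 0.0093 for Dnajb5 (dimmest), 0.1248 for Dnajb1 (dimmer), -0.044 for Dnajc6 (dimmer) and -0.0022 for Hsp90b1. For 6 h against control with array medians set equal they were 0.0477 for Hspa4, 0.0993 for Cct2, 0.1061 for Cct5 (brighter), 0.1096 for Dnajc6 (brighter) and 0.0284 for Dnajb1 (dimmer). For 6 h against control with array weights they were -0.0583 for Tcp1, -0.0272 for Hsp90ab1 (brighter), -0.0128 for Dnajc6 (dimmer), -0.0362 for Hsp90b1 and -0.0441 for Hsph1 (brighter). For 6 h against control on the deposited scale they were 0.0218 for Cct2, 0.0286 for Cct5 (brighter), 0.032 for Dnajc6 (brighter) and -0.0351 for Dnajb14 (brighter). For 6 h against control without the 2 arrays of highest ratio they were -0.0297 for Tcp1, 0.1193 for Hspa9 (dimmer), 0.0366 for Cct2, 0.192 for Hsp90ab1 (dimmer), -0.0257 for Hsp90ab1 (brighter), 0.0593 for Dnajb1 (dimmer), -0.0564 for Dnajc6 (dimmer), -0.069 for Hsp90b1 and -0.0442 for Hsph1 (brighter). With one array left out, differences whose sign turned ran for 1 h against control from -0.0039 to 0.07 for Dnaja1 (brighter), -0.4742 to 0.1156 for Dnaja4 (dimmer), -0.0345 to 0.0677 for Dnajb11, -0.125 to 0.0956 for Dnajb5 (brightest), -0.451 to 0.0719 for Dnajb5 (dimmest), -0.0083 to 0.0668 for Hsp90ab1 (brighter), -0.3306 to 0.0268 for Hspa4, -0.0484 to 0.0528 for Hsph1 (brighter) and -0.0214 to 0.1226 for Tcp1. With one array left out, differences whose sign turned ran for 6 h against control from -0.0879 to 0.0366 for Cct2, -0.0581 to 0.041 for Cct5 (brighter), -0.1897 to 0.0593 for Dnajb1 (dimmer), -0.1632 to 0.4486 for Dnajb14 (brighter), -0.1633 to 0.0313 for Dnajb5 (brightest), -0.0947 to 0.0417 for Dnajc6 (brighter), -0.0564 to 0.074 for Dnajc6 (dimmer), -0.7094 to 0.192 for Hsp90ab1 (dimmer), -0.0378 to 0.0402 for Hsp90ab1 (brighter), -0.069 to 0.0832 for Hsp90b1, -0.2406 to 0.1233 for Hspa4, -0.4068 to 0.1193 for Hspa9 (dimmer), -0.0116 to 0.1376 for Hspd1, -2e-04 to 0.0834 for Hspe1, -0.0485 to 0.0695 for Hsph1 (brighter) and -0.0912 to 0.0529 for Tcp1.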
